A study of Mus musculus with 6 samples.

Results

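The sites nearest the distal ends of the mouse autosomes were examined for open chromatin in primary mouse embryonic fibroblasts (pMEFs) with and without HAT1 (HAT1+/+ and HAT1-/-). A site was taken when it lay on chromosomes 1 to 19 and its start was within 2000000 bp of the largest site end listed for its chromosome. This gave 4156 of 225604 autosomal sites and of 229903 sites in all. No accessibility value entered the choice.

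ATAC-Seq measures how readily a transposase cuts chromatin, so that reads collect at promoters, enhancers and other open DNA. Libraries came from 3 HAT1+/+ and 3 HAT1-/- pMEF lines, labelled HAT1 WT and HAT1 KO, all of the C57bl6 strain background, isolated from embryos and grown in DMEM with FBS and antibiotics, with no other treatment. pMEFs are a mixed culture of cells from the embryo body, and the HAT1-/- lines came from knockout embryos, so that HAT1 was absent throughout their development. The values available were 1 mean per site and genotype, so that no spread between lines can be given, no p-value between genotypes was computed, and the depth of each line is unknown.

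HAT1 is the histone acetyltransferase that acetylates newly made histone H4 before it is assembled into chromatin behind the replication fork. Mouse chromosomes are nearly telocentric: the centromere sits at the start of the numbered sequence, and the largest coordinates lead to the telomere of the long arm. Telomeres are arrays of the repeat TTAGGG bound by the shelterin complex, and the chromatin beside them is known for heterochromatic marks that can extend into the neighbouring DNA.

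The sites that touch the telomere repeat itself are described first, because they are the members closest to the chromosome ends. A tandem pair of TTAGGG, read on either strand, occurred in 9 of the 4156 terminal sites and in 37 autosomal sites in all. These 9 are 0.217% of the terminal sites, while the 37 are 0.0164% of all autosomal sites. In windows of 300 bases around the site centres the shares were 0.192% and 0.0195%. Of the 9 sites, 7 ended within 1 kb of the last assembled base of the chromosome. As an example of how such a site looks, 120 bases of the plus strand of GRCm38, the assembly of the mm10 coordinates, are given around the first tandem pair of the inner of the 2 sites on chromosome 2, with every match to TTAGGG or its reverse complement in capitals.
chr2:182012465-182012584: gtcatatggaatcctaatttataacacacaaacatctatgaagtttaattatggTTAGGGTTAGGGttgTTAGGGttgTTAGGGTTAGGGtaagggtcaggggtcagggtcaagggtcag

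The stretch held 5 units, some of them separated by other letters, and ended in variants of the repeat. The central 31 bases of the outermost sites of chromosomes 2 and 11 occurred 1835 times in the assembly, so the reads of these sites cannot be tied to their chromosome by that stretch. The centres of the other 5 sites within 1 kb of the last base occurred once, as counted on both strands.

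Accessibility at these repeat sites was low. The levels are log2 normalised read counts, so that a level of 4 stands for 16 reads. The outermost site of chromosome 2 had a level of 2.34 in HAT1+/+ and 1.6 in HAT1-/- pMEFs. Its neighbour with a repeat had 2.93 and 2.17. On chromosome 14 the levels were 3.05 and 2.05, a difference of -1.0, the lowest among the 9. The HAT1-/- level was the lower of the genotypes at these 3 sites and at the repeat site of chromosome 18, with 3.63 and 3.46. The remaining sites near a last base went the other way. Chromosome 11 gave 1.73 in HAT1+/+ and 2.26 in HAT1-/-. Chromosome 12 gave 4.97 and 5.04. Chromosome 19 gave 3.90 and 4.02. Over the 7 sites the median level was 3.05 in HAT1+/+ and 2.26 in HAT1-/- pMEFs. Site by site the median difference was -0.17, with 4 differences below 0 and 3 above.

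The 2 tandem sites farther from an end were promoters with high levels. The site at the start of Ogfr, an opioid growth factor receptor gene on chromosome 2, had 7.55 in HAT1+/+ and 7.65 in HAT1-/-. The site at the start of AW011738 on chromosome 4 had 7.12 and 6.70. The 28 tandem sites elsewhere on the autosomes had median levels of 4.36 and 4.18 and a median difference of -0.05, against -0.17 for the 9 terminal sites. Differences among the 28 ran from -2.09 to 0.69.

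The outermost site of each chromosome was then examined, whether or not it held the repeat. Of the 19 outermost sites, 12 ended within 1 kb of the last assembled base, and those of chromosomes 11 and 12 reached 39 and 11 bp past it. The median level of the 19 was 3.62 in HAT1+/+ and 3.46 in HAT1-/- pMEFs, and 13 of the 19 were lower in HAT1-/-. Of all terminal sites 56.8% were lower, and of all autosomal sites 55.1%. So few outermost sites cannot be set apart from these shares. The widest gaps lay at chromosome 14 with -1.0, chromosome 10 with -0.94 and chromosome 15 with -0.81. The largest gain was 0.53 at chromosome 11. The plot of the outermost sites shows that the pair of highest levels belonged to gene starts: A630089N07Rik on chromosome 16, with 8.38 and 8.44, and Gm20939 on chromosome 17, with 8.17 and 8.02. The centres of these last sites occurred 2 and 3 times in the assembly.

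**Figure D1:**
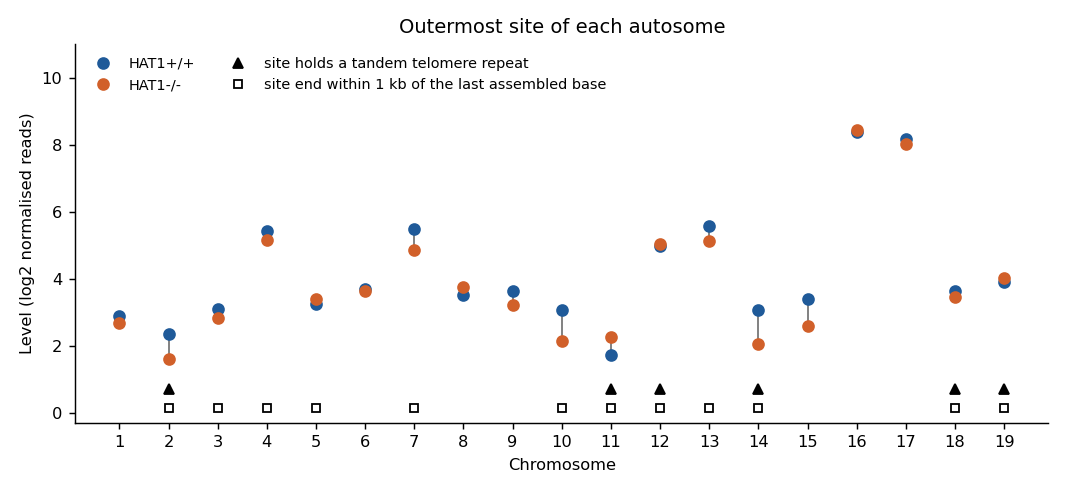
Level of the outermost site of each of the 19 autosomes (y axis, log2 normalised reads, genotype means) by chromosome (x axis), HAT1+/+ in blue and HAT1-/- in orange, with a grey line between both means. Triangles mark the 6 outermost sites with a tandem telomere repeat and squares the 12 that end within 1 kb of the last assembled base. Of the 19 sites, 13 are lower in HAT1-/-, against 56.8% of all terminal sites.

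Across all 4156 terminal sites, accessibility in the 2 genotypes was close. The median level was 3.92 in HAT1+/+ pMEFs, or 15.1 reads, and 3.85 in HAT1-/- pMEFs, or 14.4 reads. The median difference, HAT1-/- minus HAT1+/+, was -0.08 on the log2 scale, with 5% of sites below -0.97 and 5% above 0.77. The HAT1-/- level was the lower one at 56.8% of the sites. Summed over the sites, HAT1-/- pMEFs kept 95% of the HAT1+/+ reads. In pooled cells, a lower level from fewer cells with the site open and one from less cutting in each cell cannot be told apart.

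Sites with a difference of 1 or more, which is a 2-fold change, numbered 196 in the lower direction and 98 in the higher. These are 4.72% and 2.36% of the terminal sites, against 5.11% and 2.82% of all 229903 sites. Both shares lay a little under those of the table. Centred on the median of all autosomal sites, the counts were 160 and 126. The plot of both genotype means shows that the wide differences lay at low levels. Of sites whose mean of the genotypes was under 3, 11.5% were lower by 1 or more, and of those at 6 or above 0.384%, which are 2 of 521 sites. These shares were 11.3% and 0.484% in the 2 to 6 Mb before the terminal window, and 10.9% and 0.654% farther in. Of terminal sites under 3, 7.29% were higher by 1 or more, against 8.68% in the 2 to 6 Mb before and 8.76% farther in.

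**Figure D2:**
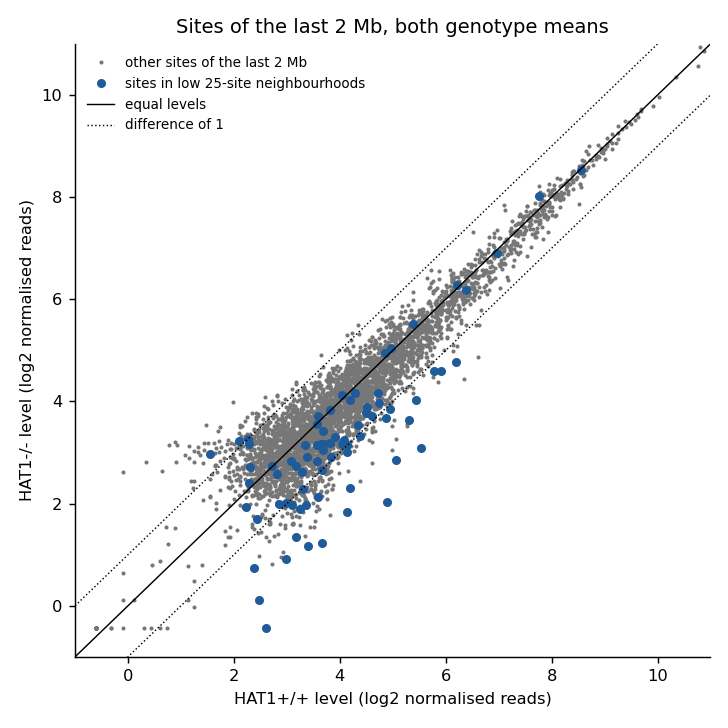
Level of each of the 4156 terminal sites in HAT1-/- (y axis) against HAT1+/+ pMEFs (x axis), both in log2 normalised reads, 1 point per site. The solid line marks equal levels and the dotted lines a difference of 1, and 27 of the 76 sites in low 25-site neighbourhoods (blue) lie on or below the lower dotted line.

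To ask whether the last 2 Mb differ from the DNA that precedes them, each chromosome's terminal window was set beside its window from 2 to 6 Mb, which held 9717 sites. The medians there were 3.86 in HAT1+/+ and 3.79 in HAT1-/- pMEFs, with a median difference of -0.07. Of these sites, 4.85% were lower and 2.77% higher by 1 or more, and 94.6% of the reads were kept. Taken chromosome by chromosome, the terminal median exceeded that of the preceding window by 0.03 ± 0.32 in HAT1+/+ and by 0.10 ± 0.31 in HAT1-/- (SD, n = 19 chromosomes). The genotype difference in the last 2 Mb minus that before was 0.04 ± 0.22 (SD, n = 19), below 0 on 10 chromosomes and above 0 on 9. None of these means exceeded the spread between chromosomes, which are not replicate samples.

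By chromosome, the median difference in the last 2 Mb lay between -0.26 and 0.03. It was below 0 on 14 chromosomes, at 0 on chromosome 9 and above 0 on 4, namely chromosomes 8, 16, 18 and 19. Relative to the median of all autosomal sites, which was itself -0.06, it was below on 11 chromosomes and above on 8. The median over all terminal sites was then -0.02 in place of -0.08. Chromosomes 3 and 12 shared the lowest value. On chromosome 3 the medians were 4.08 in HAT1+/+ and 3.74 in HAT1-/-, and on chromosome 12 they were 3.72 and 3.46. Chromosome 18 had the highest value, 0.03, with medians of 3.75 and 3.82. The quartiles of its sites were -0.51 and 0.48, so that its sites were spread widely on both sides of 0.

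On 14 of the 19 chromosomes the terminal and the preceding window differed by no more than 0.1 in their median genotype difference. Chromosome 17 stood apart. Its last 2 Mb had a median difference of -0.14, while the 4 Mb before had -0.99, with levels falling from 4.00 in HAT1+/+ to 3.00 in HAT1-/- pMEFs. The 84 sites of that stretch kept 46.7% of their reads, and the 52 terminal sites kept 93.6%. Without chromosome 17 the mean over chromosomes was 0.00 ± 0.10 (SD, n = 18), a comparison added after the values were seen. Chromosome 18 had -0.28 before the last 2 Mb, and chromosome 12 had -0.09.

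**Figure D3:**
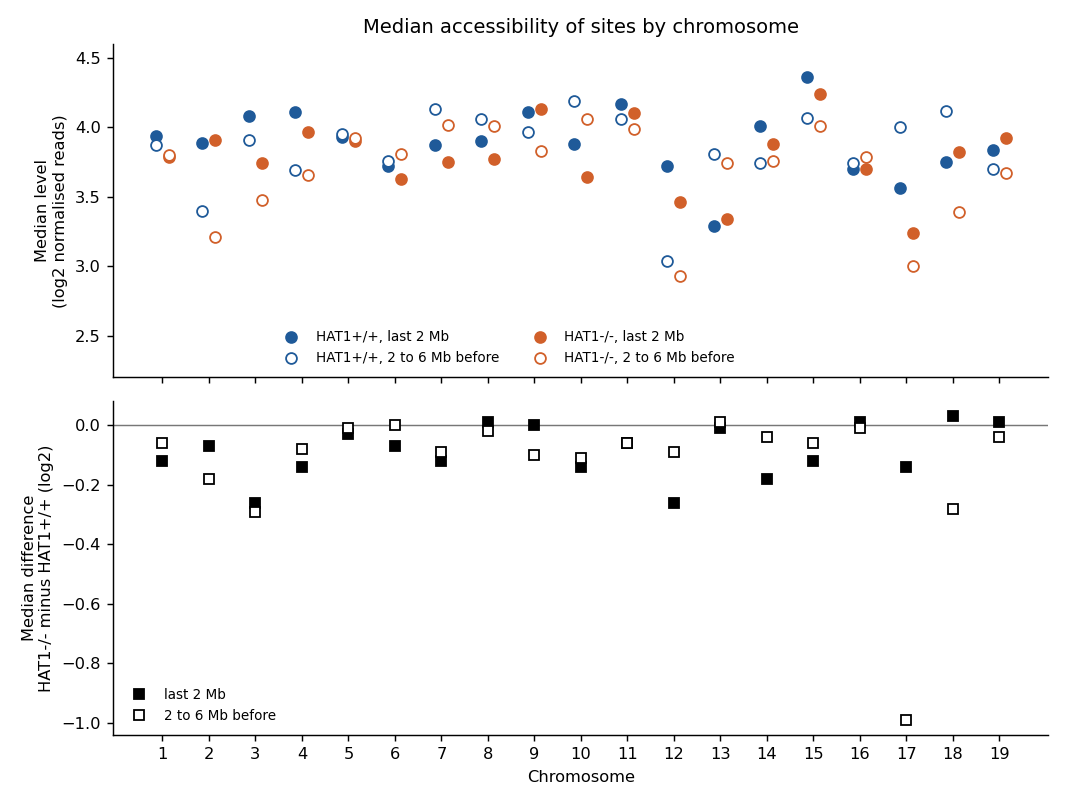
Upper panel, median level of sites (y axis, log2 normalised reads) by chromosome (x axis) for HAT1+/+ (blue) and HAT1-/- (orange) in the last 2 Mb (filled) and in the 2 to 6 Mb before (open). Lower panel, median of HAT1-/- minus HAT1+/+ (log2) in the same windows, where the filled squares lie between -0.26 and 0.03 and the open square of chromosome 17 at -0.99.

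The windows also differed in how many sites they held. The last 2 Mb carried 109 ± 53.7 sites per Mb and the 4 Mb before 128 ± 56.5 (SD, n = 19 chromosomes), against 95.2 ± 11.1 over whole chromosomes. Density was lower at the end than before it on 13 chromosomes, and the mean log2 ratio was -0.21 ± 0.66. Chromosome 7 was the densest with 194 sites per Mb, and chromosome 17 the sparsest with 26.0. Chromosome 2 went furthest the other way, with 178 sites per Mb at its end and 63.5 before.

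Over the last 6 Mb, GC content fell towards the ends. The median GC of the 200 kb around terminal sites was 44.4%, against 47.0% in the window before and 44.2% for all autosomal sites. By chromosome the terminal value was lower than that before by 2.16 ± 2.37 percentage points (SD, n = 19), on 14 of 19 chromosomes. This mean did not exceed the spread between chromosomes. The profile in bins of 0.5 Mb ran from 42.9% in the outermost bin to 45.7% in the bin next to the 2 Mb limit, and lay between 46.6% and 47.2% from 2 to 6 Mb. The median genotype difference had no such course: it was -0.09, -0.07, -0.07 and -0.08 in the 4 terminal bins and between -0.11 and -0.02 in the 8 bins before.

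**Figure D4:**
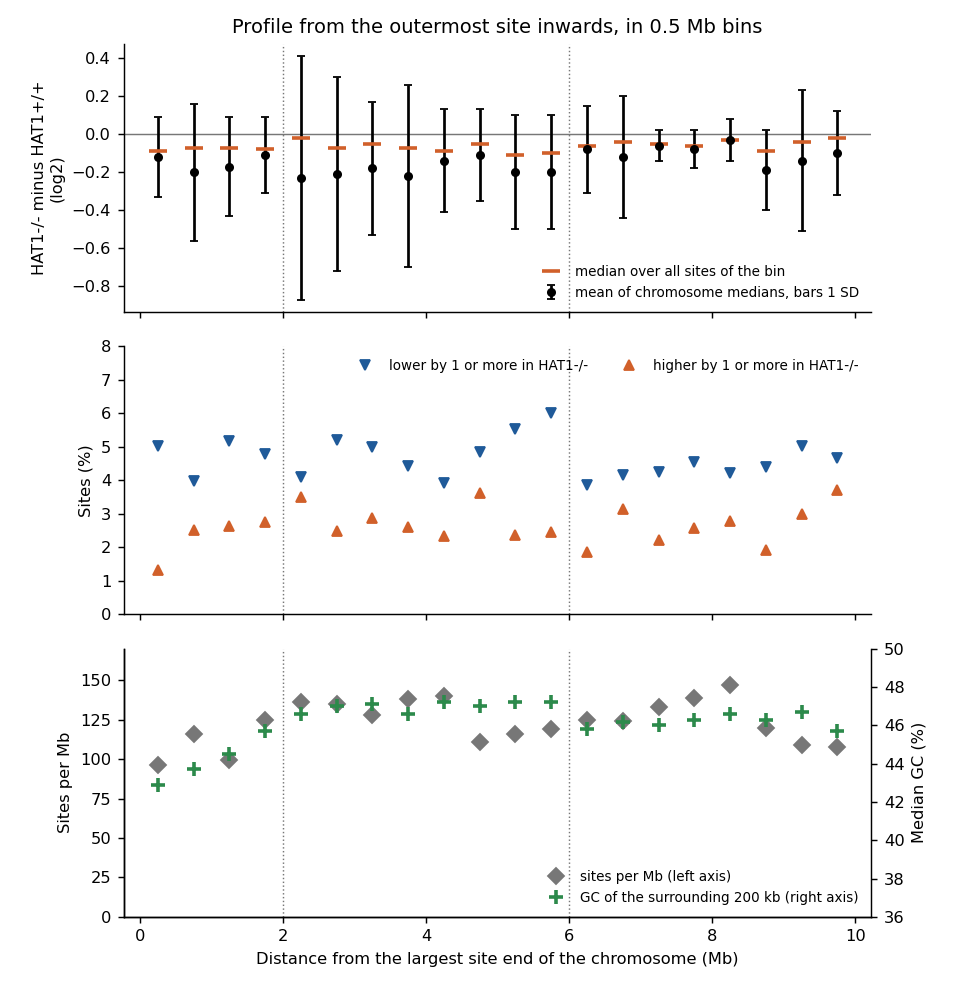
Profile over the 19 autosomes against distance from the largest site end (x axis, Mb, 0.5 Mb bins), with dotted lines at 2 and 6 Mb. From top: HAT1-/- minus HAT1+/+ (log2; black, mean and SD of chromosome medians; orange, median of all sites), percent of sites lower or higher by 1 or more, and sites per Mb with GC of the surrounding 200 kb (%), which is 42.9 in the outermost bin.

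Levels were lowest beside the last base. The 33 sites that ended within 10000 bp of it had medians of 3.05 in HAT1+/+ and 2.72 in HAT1-/-, and 22 of them were lower in HAT1-/- pMEFs. Their median difference was -0.17. The 181 sites within 100000 bp had medians of 3.81 and 3.42 and a difference of -0.20, with 66.3% of sites below 0. From 100000 to 500000 bp both medians were 3.79 and the difference was -0.06. From 0.5 to 1 Mb the medians were 4.02 and 3.96, and from 1 to 2 Mb 3.92 and 3.85. Of the 181 sites, 13 were lower and 1 was higher by 1 or more, or 7.18% and 0.552%, against 5.11% and 2.82% of all sites.

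Neighbourhoods of lowered sites were found at the ends of 4 chromosomes. A site was placed in a low neighbourhood when the mean difference of the 25 sites centred on it was below -0.58. This held for 76 terminal sites, or 1.83%, against 2.09% in the 2 to 6 Mb before and 2.26% of all autosomal sites. They lay on chromosome 3 (29 sites), chromosome 17 (25), chromosome 12 (15) and chromosome 18 (7). Because the mean includes the site itself, their lower levels are part of the definition and are given as a description: medians of 3.76 in HAT1+/+ and 3.16 in HAT1-/-, with 27 of 76 lower by 1 or more. The other 4080 terminal sites had a median difference of -0.07. Low neighbourhoods held 13 of the 181 sites within 100000 bp of a last base, or 7.18%, all on chromosomes 12 and 18.

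On chromosome 3 the low sites spread over 1200 kb, from 0.444 to 1.64 Mb before the end. Levels there went from a median of 4.13 in HAT1+/+ to 3.09 in HAT1-/- pMEFs. The stretch holds the starts of Lrrc7, which encodes a postsynaptic scaffold protein, and Depdc1a. At the start of Lrrc7 the level was 5.91 in HAT1+/+ and 4.6 in HAT1-/-, while at the start of Depdc1a it was 7.76 and 8.02. The 67 other terminal sites of the chromosome had 4.03 and 3.93, and the outermost 250 kb, around the Wnt secretion factor gene Wls, had a median difference of -0.09.

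On chromosome 12 the low sites ran up to the last site of the chromosome and reached 418 kb inwards, around Tmem196. Their medians were 3.83 in HAT1+/+ and 3.19 in HAT1-/-. The site at the start of Tmem196 had 4.95 and 3.86. The telomere repeat site at the very end of that stretch had 4.97 and 5.04. On chromosome 17 the low sites lay 0.878 to 1.80 Mb from the end, around Adcyap1, the gene of the neuropeptide PACAP, and continued the lowered stretch before 2 Mb. Their medians were 3.57 and 2.83. The outermost 250 kb of chromosome 17, around Mettl4, had a median difference of 0.21. On chromosome 18 the 7 low sites lay 62.2 to 356 kb from the end around Tmx3, with medians of 3.58 and 3.16 but a median difference of -0.03. The site at the start of Tmx3 had 8.56 and 8.53, and 11 of the 13 terminal sites of chromosome 18 lower by 1 or more lay outside this stretch.

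**Figure D5:**
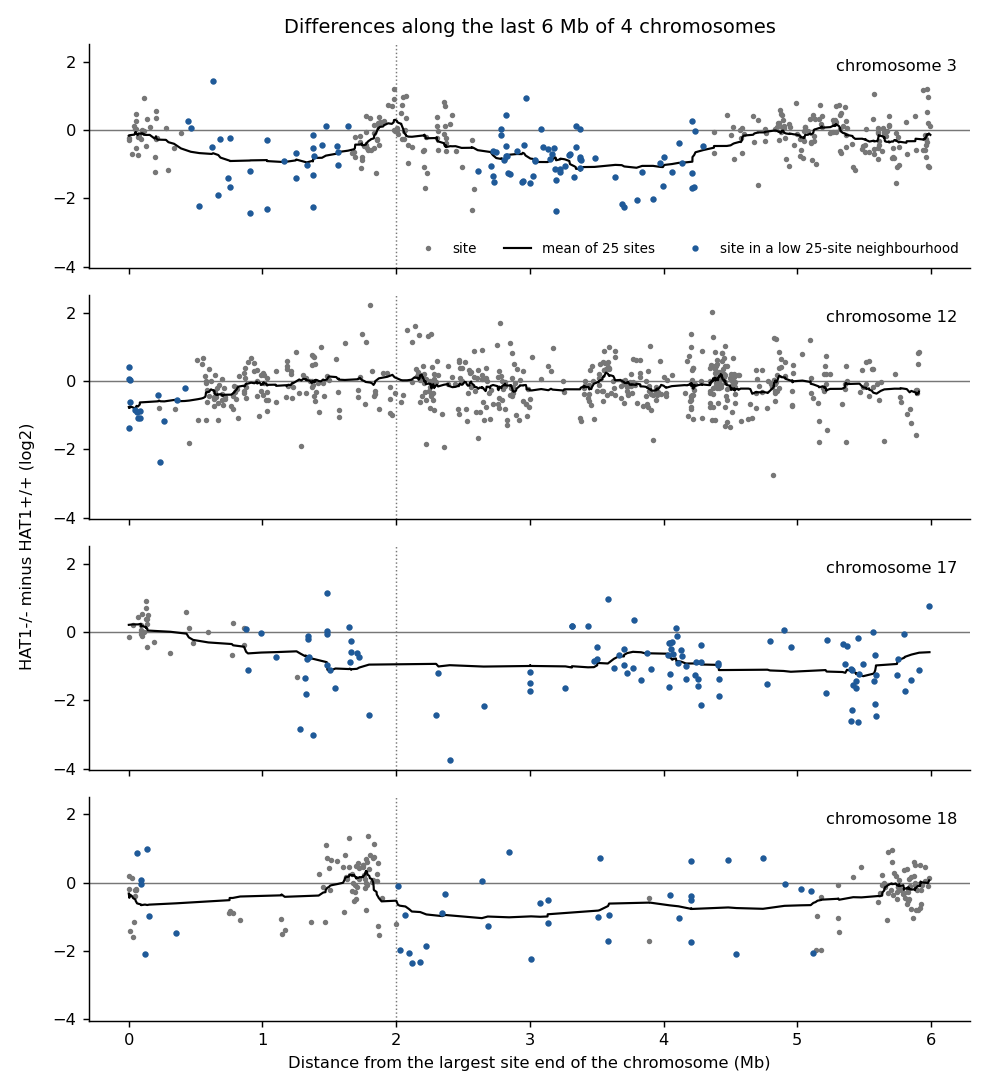
HAT1-/- minus HAT1+/+ (y axis, log2) of each site against its distance from the largest site end (x axis, Mb) over the last 6 Mb of chromosomes 3, 12, 17 and 18, with the mean of 25 sites as a black line and sites in low neighbourhoods in blue. The dotted line marks 2 Mb; the blue sites reach the end on chromosome 12, while on chromosome 17 the outermost 250 kb have a median of 0.21.

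These 4 tails and that of chromosome 14 were the ones with a median surrounding GC under 40%, a grouping made after the values were seen. Their 479 sites had a median difference of -0.19 and 11.9% lower by 1 or more, while the 3677 sites of the other 14 tails had -0.07 and 3.78%. The 2 to 6 Mb before the same 5 ends had 11.6%, and that before the other 14 had 3.72%. Site by site, terminal sites in surroundings under 40% GC were lower by 1 or more in 10.8% of cases, and those between 40% and 45% in 5.24%. The same classes gave 21.5% and 5.73% in the 2 to 6 Mb before. In autosomal sites farther than 6 Mb from the ends they gave 13.3% and 4.78%. The part of GC content in the terminal differences was not tested.

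The sites with the widest differences were read next, among sites with a level of at least 4 in either genotype. Of the 6 most lowered, 3 lay in the low stretch of chromosome 3 and 1 in that of chromosome 17. The lowest was chr17:93580634-93580967, intergenic, 381 kb from the start of Adcyap1, with 4.89 in HAT1+/+ and 2.04 in HAT1-/-, a difference of -2.85. The next were an intergenic site of chromosome 3, with 5.53 and 3.09, and chr3:158905220-158905373, with 4.13 and 1.83. Both lie between Lrrc7 and Depdc1a. The central plus-strand bases of the site on chromosome 17 and the whole of the last one are printed from GRCm38, with the AP-1 motif TGANTCA (N is any base; the motif is its own reverse complement) and TTAGGG in capitals.
chr17:93580701-93580900: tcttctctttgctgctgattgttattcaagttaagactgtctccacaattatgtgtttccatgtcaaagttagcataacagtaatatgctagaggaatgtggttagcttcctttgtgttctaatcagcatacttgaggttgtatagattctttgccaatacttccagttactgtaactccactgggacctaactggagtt
chr3:158905220-158905373: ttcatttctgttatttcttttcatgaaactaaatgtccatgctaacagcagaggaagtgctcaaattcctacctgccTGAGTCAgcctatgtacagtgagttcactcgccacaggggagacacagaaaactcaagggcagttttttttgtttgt

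TGANTCA is the motif of AP-1, the FOS and JUN factors that are active at fibroblast enhancers. The stretch of chromosome 3 held 1 match, and that of chromosome 17 none within the bases shown, though the whole site held the motif. Over whole sites, 25.9% of terminal sites held the motif, against 25.7% in the 2 to 6 Mb before and 28.4% of all autosomal sites, and in windows of 300 bases the shares were 24.5%, 24.3% and 27.2%. Terminal sites with the motif had medians of 4.50 in HAT1+/+ and 4.40 in HAT1-/-, and those without it 3.74 and 3.67. The median differences were -0.09 and -0.07. TTAGGG as a single unit occurred in 12.3% of terminal sites and 11.2% of all autosomal sites, and in 11.6% and 10.6% of the 300-base windows.

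The other most lowered sites were chr3:159410875-159411258, with 5.06 and 2.85, chr16:96559824-96560042, between Pcp4 and Dscam, with 4.39 and 2.45, and chr5:150196925-150197442, with 4.98 and 3.05. The last lies 459 bp from an annotated start of Fry, a gene for a microtubule-binding protein, and it and the site of chromosome 16 stood outside low neighbourhoods, with 25-site means of -0.06 and -0.26.

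The 6 most raised sites gained less. The first 2 were intronic: chr14:123469913-123470202 in Nalcn, a sodium leak channel gene, with 2.58 in HAT1+/+ and 4.09 in HAT1-/-, and chr9:123601639-123601833 in Slc6a20b, a transporter gene, with 2.81 and 4.12. Their central bases, or the whole site, follow in that order, with no match to either motif.
chr14:123469958-123470157: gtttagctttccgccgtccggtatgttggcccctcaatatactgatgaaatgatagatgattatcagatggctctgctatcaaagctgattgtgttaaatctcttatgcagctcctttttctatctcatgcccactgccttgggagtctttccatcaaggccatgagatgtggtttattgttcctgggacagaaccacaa
chr9:123601639-123601833: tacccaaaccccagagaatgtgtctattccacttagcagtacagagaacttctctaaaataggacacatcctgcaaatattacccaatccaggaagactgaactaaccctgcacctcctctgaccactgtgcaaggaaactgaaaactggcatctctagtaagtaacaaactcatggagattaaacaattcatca

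A site on chromosome 18, 17.1 kb from the start of Rttn, went from 2.81 to 4.11. A site 1.73 kb from a start of Myt1, a neural zinc finger factor gene on chromosome 2, went from 2.72 to 4.00. A site 2.74 kb from the start of the homeobox gene Hoxc10 on chromosome 15 went from 3.64 to 4.91, and chr14:123048299-123048785 from 3.18 to 4.39. The raised sites had medians of 7.01 reads in HAT1+/+ and 17.3 in HAT1-/-, and the lowered sites 30.6 and 6.28, an order fixed by how they were chosen. None of the 6 raised sites lay in a low neighbourhood, but only 1.83% of terminal sites do. With 6 sites picked for their gains, this says nothing about the neighbourhoods.

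The strongest site of each terminal window was a promoter on all 19 chromosomes, and these hardly differed. Their median levels were 9.26 in HAT1+/+ and 9.25 in HAT1-/-, with differences from -0.11 to 0.31. The site at an annotated transcript start of Ppp2r3d, a phosphatase subunit gene, 70273 bp from the last base of chromosome 9, had 10.88 and 10.87, and its HAT1+/+ level was the highest in the table, while the site at the gene's outer start had 4.94 and 4.62. The site at the start of Sp4, a zinc finger factor gene on chromosome 12, had 10.81 and 10.94, and its HAT1-/- level was the highest in the table. Sp1, of the same family, had 10.34 and 10.36 on chromosome 15. Hmgcs1, an enzyme gene of cholesterol synthesis on chromosome 13, had 10.02 and 9.97. The widest difference was that of Ergic2 on chromosome 6, with 8.70 and 9.01. On chromosome 17 the strongest site was that of Mettl4, with 9.62 and 9.63, outside the lowered stretch of that end.

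By annotation, 1429 terminal sites were promoters, within 3 kb of a transcription start, which is 34.4% against 30.6% in the 2 to 6 Mb before and 28.3% of all autosomal sites. By chromosome the share was 2.70 ± 13.8 percentage points higher at the end than before it (SD, n = 19), on 11 of 19 chromosomes, so the excess did not exceed the spread between chromosomes. Promoters had medians of 4.47 in HAT1+/+ and 4.37 in HAT1-/-, intronic sites 3.73 and 3.66, and intergenic sites 3.74 and 3.65. Lower by 1 or more were 3.43% of promoters, 5.50% of intronic and 5.39% of intergenic sites. In the 2 to 6 Mb before, the shares were 3.20%, 5.14% and 6.74%.

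The last 2 Mb held the starts of 517 protein-coding genes, and 357 of them, or 69.1%, had a site within 1 kb, against 71.1% of all autosomal genes. The strongest such site of each gene had a median of 7.48 in HAT1+/+ and 7.41 in HAT1-/-. At 9 of the 357 genes the site was lower by 1 or more, and at none was it higher. These are 2.52%, against 0.806% in the 2 to 6 Mb before and 1.10% of all autosomal genes. Higher by 1 or more were 0.161% in the 2 to 6 Mb before and 0.351% of all autosomal genes. A count of none among 357 lies near these shares. The 9 were BC147527, Lrrc7, Rxfp2, Cbr2, Tmem196, Dok6, Fgf3 and the olfactory receptor genes Olfr763 and Olfr9. They were named because the count is small, after their values were seen. Dok6, an adaptor of receptor tyrosine kinases, went from 6.57 to 5.49, Cbr2, a carbonyl reductase, from 6.21 to 5.08, and the growth factor gene Fgf3 from 3.94 to 2.90. The sites of both olfactory receptor genes held less than 3 normalised reads in either genotype. Rtel1, a helicase needed to keep telomeres at length, starts 693390 bp from the largest site end of chromosome 2 and had 6.43 and 6.37.

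Members of 10 gene families among the terminal genes were counted. The end of chromosome 10 holds 60 olfactory receptor genes, which are used in the nose, and 2 of them had a site at their start. That window had 51.0 sites per Mb, against 120 in the 4 Mb before. The 6 vomeronasal receptor genes at the ends of chromosomes 4, 5 and 10 had none. Chromosome 15 carries 9 genes of the Hoxc cluster, homeobox factors that set position along the body, and 7 had a site. Those went both ways, from Hoxc13 with 5.66 in HAT1+/+ and 4.80 in HAT1-/- to Hoxc11 with 3.26 and 4.04. Of the 7, 3 were lower and 4 higher, none by 1 or more, and Hoxc10 and Hoxc5 share a site. The 8 chemokine receptor genes at the end of chromosome 9 had 3 sites, with a median of 4.39 and 4.10. The 4 genes of the Sp family at the ends of chromosomes 12 and 15 all had a site, with differences from 0.02 to 0.59. In the TNF receptor family, 5 of 6 sites were lower in HAT1-/-, with differences from -0.52 to 0.17. Lower in HAT1-/- were also 3 of 4 sites of fibroblast growth factor genes, 2 of 3 of Mrgpr receptor genes and 2 of 2 of keratin genes. For chemokine receptors it was 2 of 3, and for integrins 3 of 5. Of all terminal sites 56.8% were lower, and of terminal promoters 60.3%. So few sites per family cannot be set apart from these shares. Integrins, the matrix receptors of fibroblasts, lie at the ends of 5 chromosomes and had a site at 5 of 6 genes, among them Itgb1 with 8.51 and 8.62 and Itga5 with 7.63 and 7.28.

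Sites with copied sequence were most frequent on chromosome 13. The central 31 bases of 126 terminal sites, or 3.03%, occurred more than once in the assembly, and 42 of these lay on chromosome 13, where they made up 24.7% of 170 sites. In the 2 to 6 Mb before the share was 1.98%, and in sites farther in 2.32%. The 42 sites had medians of 0.60 in HAT1+/+ and 0.30 in HAT1-/- pMEFs. Of the 48 terminal sites under a level of 2, or 4 reads, in both genotypes, 30 were on chromosome 13, whose end holds the Tcstv genes of the early embryo. The part of copied sequence in these low levels was not tested. The terminal median of chromosome 13, at 3.29 the lowest of all in HAT1+/+ and 3.34 in HAT1-/-, was 3.71 and 3.67 over its 128 sites with a centre found once. Over the 4030 terminal sites of that kind, 4.69% were lower and 2.41% higher by 1 or more. The shares were 4.69% and 2.69% in the 2 to 6 Mb before, and 5.12% and 2.74% farther in.

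The sites beside the 2 Mb limit were read last. The 19 sites just inside it had medians of 3.97 in HAT1+/+ and 3.72 in HAT1-/-, and the 19 just outside 3.57 and 3.23, with median differences of -0.08 and -0.05. On chromosome 17 the inner site went from 3.66 to 1.22 and the outer from 3.79 to 1.36. Facts of the whole table bear on these values. Of 10 fibroblast marker genes all had a site at their start, with medians of 7.20 and 7.10, Lum being the weakest with 2.22 and 3.51, and 10 of 11 markers of epithelial, endothelial, leukocyte and neural cells had one too, with medians of 5.10 and 4.96 and none for Cd3e. A site within Hat1, chr2:71421184-71421348, went from 4.46 in HAT1+/+ to 1.77 in HAT1-/-, while the site at the start of Hat1 had 7.69 and 7.90.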

How the data were processed

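ATAC-Seq libraries of 3 HAT1+/+ and 3 HAT1-/- pMEF lines were processed by the authors with the ENCODE ATAC-Seq pipeline: alignment to mm10 with Bowtie2, peak calls with MACS2 and comparison with DiffBind 2.14.0, the tools also listed in the submitters' processing notes. The consensus rule, the read normalisation and the test are not given in the sources used here. The authors deposited 1 table, whose levels are log2 mean normalised reads per site and genotype, pooled over lines. Its fold change, p-value and FDR columns are the authors' comparison and were not used. The depth of sequencing per line is unknown, which limits the precision at low levels.

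The difference is HAT1-/- minus HAT1+/+ of the 2 deposited log2 levels. The reference was GRCm38, whose chromosome lengths were checked against the sites, with GENCODE release M21. Sites within 3 kb of a transcription start were promoters; others were exonic, intronic or intergenic. Distances run from the largest site end, or from the last assembled base where stated. Low neighbourhoods used at least 13 sites where a window was cut by a chromosome end. Exact copies were counted for the central 31 bases over chromosomes and unplaced scaffolds.

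No test between genotypes was made, since each genotype has 1 mean; values are described with the SD over 19 chromosomes. A separate short version of the window comparison returned known shifts in simulated data. The code that gave the reported values, and the neighbourhood code, were not tested in this way. Sites named were the strongest and the outermost of each chromosome, the 6 most lowered and the 6 most raised with a level of at least 4 in either genotype, the chromosomes with the lowest and highest median difference, the sites beside the 2 Mb limit and those in Hat1. The members, gene families and lists were chosen with earlier results of these data known. The GC grouping of ends, the repeat and copy counts, the gene starts lower by 1 or more, and the omission of chromosome 17 were chosen after values were seen. Sequence at the strongest promoters and at some other named sites is not reported here. Other window lengths, distance measures, promoter, level and neighbourhood filters and thresholds were tried. Python 3.11.15, pandas 2.3.3, numpy 2.4.6 and matplotlib 3.10.9 were used.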

Additional observations from a re-analysis of the deposited data

How the results depend on the processing

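Of 78 values obtained under other settings, 70 were counted as unmoved. They differed by no more than the SD over chromosomes or, for counts, stayed within 1.5 times the reported count. None of the reported values other than counts was larger than this SD, so even a change of sign could count as unmoved. The 8 that moved were counts. Sites lower by 1 or more numbered 90 in the last 1 Mb, 435 in the last 4 Mb and 60 with a level of at least 4, and 622 were lower by 0.58 or more, against 196. Sites higher by 1 or more numbered 40, 244 and 16, and 393 were higher by 0.58 or more, against 98. The last 1 Mb held 2019 sites and the last 4 Mb 9254, against 4156, and the threshold of 0.58 was applied to all 4156. The level filter kept 2157 sites, and under it both counts fell by more than the number of sites did.

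Small means crossed 0 in 5 cases. The density ratio was 0.11 against the window from 4 to 6 Mb. The HAT1+/+ level difference was -0.04 outside promoters, and that of HAT1-/- was -0.02 for the last 4 Mb against 4 to 8 Mb. The genotype difference between the windows was -0.03 there and -0.01 without low neighbourhoods, against 0.04, and 0.00 without chromosome 17, the 1 alternative chosen after the data were seen. Leaving out each chromosome in turn, it lay between 0.00 and 0.06.

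No paired analysis was possible because each level is already averaged within a genotype, and for the same reason leaving out a line was impossible. Few reads per site limit the values, with a median of 15.1 reads in HAT1+/+.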

Other observations

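The opposite, centromere-proximal ends held 3774 sites in the 2 Mb after the first site of each autosome. Their medians were 3.82 in both HAT1+/+ and HAT1-/- pMEFs, with a median difference of -0.03. Lower by 1 or more were 3.76% and higher 3.52%, against 4.72% and 2.36% at the distal ends. In low neighbourhoods lay 1 of these sites, or 0.0265%, against 76 at the distal ends, or 1.83%. Of all autosomal sites 2.26% did, and the 76 lay on 4 chromosomes. Promoters made up 35.6% of them, against 34.4%. The difference between both ends was not tested.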
